A study of Mus musculus with 4 samples.

Results

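The transcripts of 43 mouse DNA repair genes were followed in neuroepithelial cells of the embryonic telencephalon, the forebrain vesicle whose dividing precursors give rise to neurons and then to glia. The list was drawn from 7 repair and damage response pathways. A member was measured where a probe set, a group of short probes on the array, was annotated with that gene and no other. This gave 96 probe sets for 41 of the 43 genes. The probe sets of Tdg, a thymine glycosylase, are annotated with several genes, and Xrcc2 was not analysed here. Each gene was represented by its brightest probe set. Of the 41 genes, 40 passed a filter on dim signals and were tested among 12952 genes in all.

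The cells came from ICR mice. The E11.5 group held cells from embryonic day 11.5 that had been kept in culture for 1 day, on 2 arrays, and the E14.5 group held cells from embryonic day 14.5 kept for 4 days, on 2 arrays. All cultures received N2 supplement and basic FGF at 10 ng/ml, which keeps neural precursors dividing, on plates coated with poly-L-ornithine and fibronectin. Age and time in culture therefore changed together and cannot be told apart. Nothing in the labels says that the arrays of a group came from separate cultures or animals, so the p-values speak only of how far these arrays spread, and that spread may be technical. Levels are scaled signals: linear array intensities after each array was multiplied by 1 factor to a common trimmed mean of 174. Differences are on the scale of log2(signal + 12.8), E14.5 minus E11.5, and are given with their standard error (n = 2 arrays per group). The added constant makes the differences of dim genes smaller than their ratios. A gene was called lower or higher at a limma adjusted p under 0.05. Where a result is given with an array left out, 1 group holds a single array, which is assumed to vary like the 2 arrays of the other group.

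Cells meet DNA damage with several pathways. Homologous recombination copies an intact sister chromatid to mend a broken one, and so acts mainly in cells that have replicated their DNA. The Fanconi anaemia proteins unhook crosslinks between strands, and mismatch repair corrects errors of the replication fork. Base excision removes single damaged bases, nucleotide excision removes bulky lesions such as those made by ultraviolet light, and non-homologous end joining rejoins broken ends without a template. Kinases such as ATM and ATR sense the damage and hold the cell cycle. Precursors of the embryonic forebrain divide fast, and loss of several of these factors is known to cause small brains or the death of newborn neurons.

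Of the 40 tested members, 10 were lower at E14.5 and none was higher. The share called lower was 25%, where 13.6% of all genes were called lower and 14.3% higher. At an unadjusted p under 0.05, 14 members were lower and 5 higher, against 19.4% and 20.6% of all genes. The 10 called members were Ung, Msh6, Rad51ap1, Exo1, Brca1, Chek1, Blm, Rad54l, Mbd4 and Parp1. Among the 40 tested members, 5 were called lower and fell at least 2-fold on the log2 scale used, against 6.27% of all genes. The median difference of the members was -0.20 and that of all genes was 0.029. Negative differences were found for 28 of 40 members and for 47.6% of all genes. The 2 groups did not overlap for 29 of the 40 members, with E14.5 below E11.5 in 20 of them, against 65.6% and 31.0% of all genes. The typical gap between the 2 arrays of a group was similar for members and for all genes, with medians of 0.15 and 0.18 on the log2 scale at E11.5 and of 0.19 and 0.19 at E14.5.

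**Figure D1:**
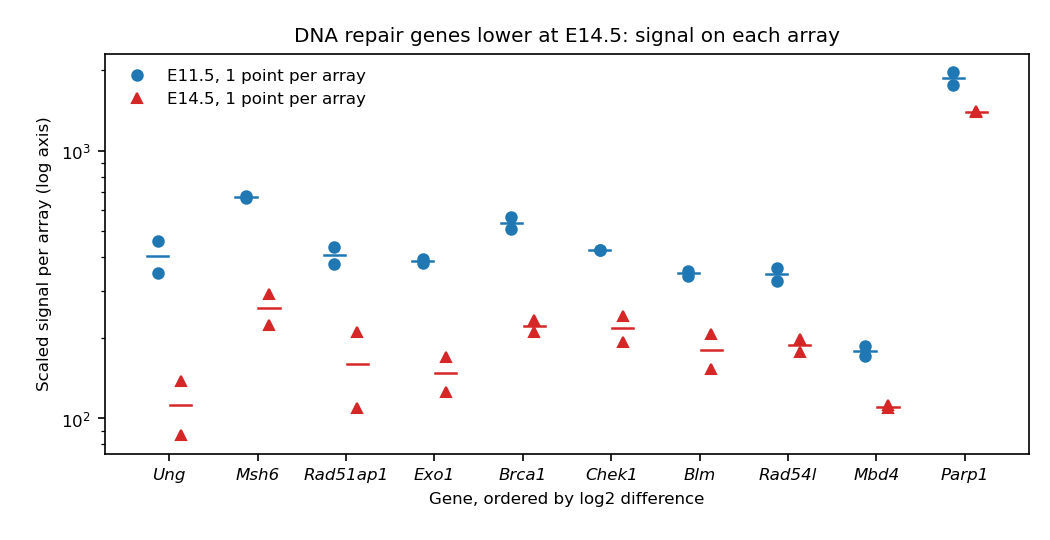
Scaled signal on a log axis for the 10 DNA repair genes called lower at E14.5, with blue circles for the 2 E11.5 arrays, red triangles for the 2 E14.5 arrays and short lines for the group means. In every gene shown both E14.5 arrays lie below both E11.5 arrays, with the widest gap for Ung and the narrowest for Parp1.

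The pathways differed in where their members lay. Homologous recombination had 4 of 5 tested members lower and mismatch repair 2 of 4, with medians of -0.92 and -0.94. Base excision and single-strand break repair had 3 of 9 lower and a median of -0.079. Damage sensing and checkpoint genes had 1 of 7 lower and a median of -0.50. Over all genes the share called lower was 13.6%, close to that of the checkpoint group (14.3%). No member of the Fanconi anaemia group (median -0.19, 5 tested), of non-homologous end joining (median 0.28, 4 tested) or of nucleotide excision repair (median 0.50, 6 tested) was called by limma in either direction. At an unadjusted p under 0.05 these 3 groups had 0, 1 and 3 members, all higher, where 20.6% of all genes were higher. The difference between pathways was not tested.

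**Figure D2:**
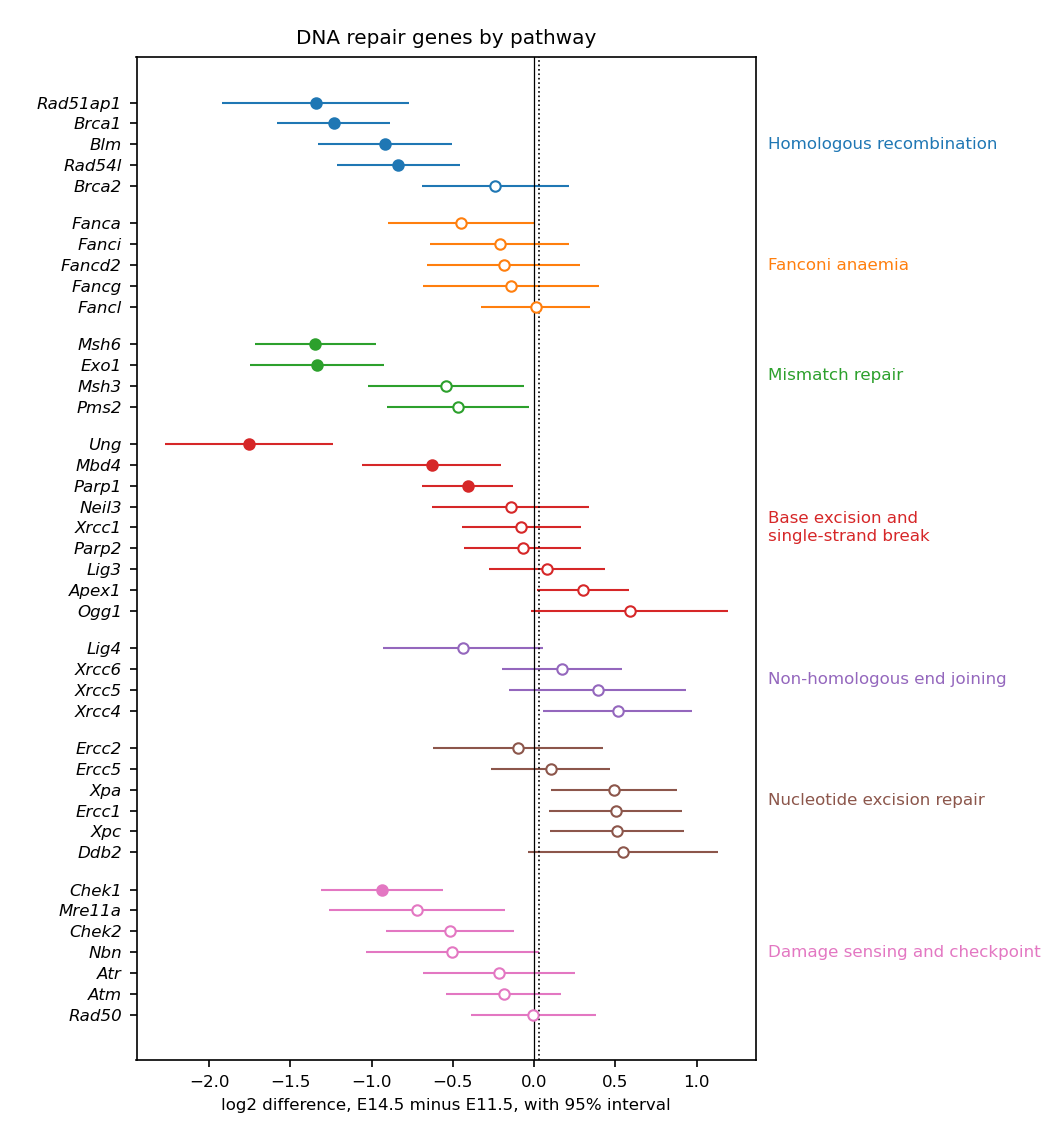
Log2 difference, E14.5 minus E11.5, with its 95% interval for the 40 tested members, grouped by pathway; filled points were called lower at a limma adjusted p under 0.05, and the dotted line is the median of all 12952 genes at 0.029. The filled points lie in homologous recombination, mismatch repair, base excision and the checkpoint group, while 5 of 6 nucleotide excision genes lie to the right of 0 with open points.

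The regions before the starts of 7 members, all called lower except Msh3, are shown to be read beside their differences. They were chosen by hand and do not stand for all members called lower. RefSeq promoters (assembly GRCm38.p6) were at hand for 36 of the 43 members, among them 34 tested ones. Each line gives the 250 bases before the annotated start, 5′ to 3′ on the gene's strand. Capitals mark the letters of a CCAAT box (GATTGG or ATTGGC, which overlap in GATTGGC) or of an E2F site (TTTCCCGC, TTTGGCGC or TTTCGCGC), on either strand. The CCAAT box is bound by NF-Y, and E2F factors drive genes of the G1 to S transition.
Ung, chr5:114130185-114130434, plus strand, with the largest fall and no match: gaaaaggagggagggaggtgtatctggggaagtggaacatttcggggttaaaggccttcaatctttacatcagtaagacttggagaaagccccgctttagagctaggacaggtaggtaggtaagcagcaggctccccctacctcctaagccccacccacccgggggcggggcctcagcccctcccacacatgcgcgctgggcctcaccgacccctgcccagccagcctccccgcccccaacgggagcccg
Brca1, chr11:101551956-101552205, minus strand: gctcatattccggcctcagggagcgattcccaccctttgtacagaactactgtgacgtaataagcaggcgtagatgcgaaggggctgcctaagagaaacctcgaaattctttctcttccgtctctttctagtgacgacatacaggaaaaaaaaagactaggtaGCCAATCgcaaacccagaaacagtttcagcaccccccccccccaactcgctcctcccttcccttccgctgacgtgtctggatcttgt
Rad51ap1, chr6:126939588-126939837, minus strand: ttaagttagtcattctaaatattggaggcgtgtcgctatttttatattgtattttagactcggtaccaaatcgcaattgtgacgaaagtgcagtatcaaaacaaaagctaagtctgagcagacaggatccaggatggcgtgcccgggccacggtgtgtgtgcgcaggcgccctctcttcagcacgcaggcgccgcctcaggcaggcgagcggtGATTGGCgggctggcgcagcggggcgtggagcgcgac
Rad54l, chr4:116123691-116123940, minus strand, the upstream of 2 annotated starts: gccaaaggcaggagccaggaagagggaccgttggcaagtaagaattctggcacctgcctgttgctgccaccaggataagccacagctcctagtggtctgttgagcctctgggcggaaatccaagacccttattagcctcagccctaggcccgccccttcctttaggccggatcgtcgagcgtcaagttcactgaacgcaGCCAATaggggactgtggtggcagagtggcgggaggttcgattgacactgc
Blm, chr7:80534999-80535248, minus strand: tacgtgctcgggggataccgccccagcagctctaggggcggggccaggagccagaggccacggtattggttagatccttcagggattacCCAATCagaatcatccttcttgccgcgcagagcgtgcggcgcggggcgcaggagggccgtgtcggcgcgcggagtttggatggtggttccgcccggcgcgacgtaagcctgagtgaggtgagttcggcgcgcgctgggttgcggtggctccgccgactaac
Msh6, chr17:87974800-87975049, plus strand: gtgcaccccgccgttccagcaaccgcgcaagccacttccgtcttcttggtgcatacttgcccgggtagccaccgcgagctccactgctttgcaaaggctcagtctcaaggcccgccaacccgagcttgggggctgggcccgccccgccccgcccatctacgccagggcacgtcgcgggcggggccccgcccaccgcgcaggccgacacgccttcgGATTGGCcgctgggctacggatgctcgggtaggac
Msh3, chr13:92355004-92355253, minus strand, not called, with both overlapping E2F forms: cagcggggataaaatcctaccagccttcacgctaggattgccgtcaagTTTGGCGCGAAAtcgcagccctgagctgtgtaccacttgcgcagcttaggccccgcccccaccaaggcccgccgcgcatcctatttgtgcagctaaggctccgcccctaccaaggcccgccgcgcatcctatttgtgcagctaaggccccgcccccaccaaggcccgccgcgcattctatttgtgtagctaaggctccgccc

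The box lay 31 to 37 bases before the start in Rad51ap1, 29 to 35 in Msh6, 46 to 51 in Rad54l, 81 to 87 in Brca1 and 156 to 161 in Blm. Of the called members not shown, Mbd4 held a CCAAT box, Chek1 and Parp1 held neither site, and Exo1 had no promoter at hand. Over the full 300 bases of the table, which run to 50 bases past the start, 6 of 9 members called lower held a CCAAT box, as did 9 of 25 members not called. Among 10453 tested genes with a promoter the share was 31.5%, among 1399 called lower it was 35.3%, and among all 32851 promoters 22.8%. An E2F site was found in 1 of 9 members called lower (Msh6, past the start and not shown) and in 5 of 25 not called (Fancg, Chek2, Brca2, Msh3 and Xrcc6). The shares were 3.90% of tested genes, 6.15% of those called lower and 1.84% of all promoters. The cell cycle homology region, TTTGAA on either strand, was in 0 of 9 and 1 of 25 members, against 14.3% of tested genes and 17.9% of all promoters. These are matches of letters in a short window and say nothing of binding.

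Homologous recombination was the pathway with the most members lower. Brca1, the breast cancer gene whose protein directs breaks into recombination, had scaled signals of 565 and 510 on the E11.5 arrays and of 210 and 233 on the E14.5 arrays. The groups were well apart, and the difference was -1.23 ± 0.16 (limma adjusted p = 0.00036). Rad51ap1, a factor that stimulates strand exchange, had 438 and 378 at E11.5. At E14.5 it had 211 on one array and 109 on the other, a wide gap that stayed below both E11.5 arrays (-1.34 ± 0.26, limma adjusted p = 0.0040). Blm, the helicase mutated in Bloom syndrome, which resolves recombination intermediates, went from 356 and 341 to 153 and 206 (-0.92 ± 0.19, limma adjusted p = 0.0051). The motor protein Rad54l, which remodels DNA during strand exchange, went from a mean of 345 to one of 188 (-0.83 ± 0.17, limma adjusted p = 0.0053). None of these 4 lost its call under any of the 14 alternative settings.

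Brca2, a mediator of strand exchange, lay apart from these. Its signals were 201 and 261 at E11.5 and 169 and 219 at E14.5, so the groups overlapped, and the difference of -0.24 had a 95% interval from -0.69 to 0.21. Bard1, the obligate partner of BRCA1, had signals between 1.96 and 8.43 on the 4 arrays and fell below the filter, so it was not tested.

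Mismatch repair split between a pair that fell strongly and a pair that did not pass. Msh6, a sensor of mismatched bases, had 665 and 675 at E11.5 and 292 and 224 at E14.5 (-1.35 ± 0.17, limma adjusted p = 0.00030). Exo1, the exonuclease that removes the faulty strand and also resects broken ends, had 394 and 382 against 126 and 169 (-1.34 ± 0.19, limma adjusted p = 0.00064). In both genes the E11.5 arrays lay close together and far above the E14.5 arrays. Msh3, a sensor of larger loops, went from a mean of 144 to 95.5, which did not pass (-0.54 ± 0.21, limma adjusted p = 0.099). Pms2, a nicking endonuclease of the pathway, had means of 197 and 138 (-0.47 ± 0.20, limma adjusted p = 0.11). The groups did not overlap in these either, and all 4 genes were lower at an unadjusted p under 0.05 at their brightest probe sets. Over all genes, 31.0% had both E14.5 arrays below both E11.5 arrays and 19.4% were lower at that unadjusted p. The 2 other tested probe sets of Pms2 lay above 0 (0.12 and 0.61, not called), and with all of them averaged its difference was 0.087. Msh3 passed with arrays left unscaled (-1.23) and in the fit with probe sets averaged per gene. It has a single tested probe set, so its difference in the latter was the same (-0.54).

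Base excision and single-strand break repair held the largest fall of any member. Ung, the glycosylase that removes uracil from DNA, had 460 and 349 at E11.5 and 139 and 86.5 at E14.5. Its log2 difference was -1.75 ± 0.23 (limma adjusted p = 0.00047), and it kept its call under all 14 alternatives. The glycosylase Mbd4, which acts on thymine and uracil opposite guanine at methylated sites, had 171 and 186 against 113 and 109 (-0.63 ± 0.19, limma adjusted p = 0.038). Parp1, the sensor of strand breaks that makes poly(ADP-ribose), had 1760 and 1962 against 1402 and 1388 (-0.41 ± 0.12, limma adjusted p = 0.038). These last calls were close to the threshold. That of Mbd4 was lost without E11.5 replicate 1 (-0.69), E11.5 replicate 2 (-0.57), E14.5 replicate 1 (-0.65) or E14.5 replicate 2 (-0.61). It was also lost under quantile normalization (-0.57), when probe sets were averaged (-0.50), and when the filter or the variance trend was dropped. That of Parp1 was lost without E11.5 replicate 2 (-0.33), E14.5 replicate 1 (-0.42) or E14.5 replicate 2 (-0.40), as well as with a common median (-0.45) and when the filter or the variance trend was dropped (-0.41 for each).

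The other enzymes of base excision did not pass. The scaffold Xrcc1 had means of 313 and 295 and its ligase partner Lig3 of 281 and 297 at its brightest probe set. The other 3 tested probe sets of Lig3 lay below 0 (-0.38, -0.95 and -0.70, none called), and their average with the brightest was -0.49. Parp2, a relative of PARP1, had 431 and 412, and Neil3, a glycosylase of dividing cells, had 125 and 111. At the brightest probe sets the 95% intervals of these 4 differences lay between -0.63 and 0.44. Ogg1, which removes 8-oxoguanine, had 46.9 and 73.3 at E11.5 and 84.7 and 106 at E14.5, without overlap (0.59 ± 0.27, limma adjusted p = 0.15). Apex1, the main endonuclease at sites that have lost their base, had means of 3314 and 4079 at its brightest probe set (0.30 ± 0.13, limma adjusted p = 0.12). That probe set passed as higher without E11.5 replicate 1 (0.40), which leaves only the lower of the E11.5 arrays.

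The probe sets of Apex1 disagreed. Its brightest probe set had 3539 and 3090 at E11.5 and 3847 and 4310 at E14.5. A dimmer one had 1915 and 1891 against 1484 and 1441 and was called lower (-0.38 ± 0.12, limma adjusted p = 0.045). The third had 1662 and 2011 against 928 and 640 and was also lower (-1.23 ± 0.18, limma adjusted p = 0.00087). The brightest and the third have names ending in _x_at, which marks probe sets with probes that can also bind other transcripts. With all its probe sets averaged the difference was -0.44 and was called lower. Because its probe sets disagreed, no direction is given for this gene.

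Damage sensing and checkpoint genes were led by Chek1, the kinase that acts below ATR and holds the cell cycle when forks stall. It had 427 and 424 at E11.5 and 241 and 194 at E14.5 (-0.94 ± 0.17, limma adjusted p = 0.0027). The E11.5 arrays were nearly equal and both E14.5 arrays were far lower. Chek2, the kinase below ATM, had 223 and 224 against 158 and 147, without overlap, and did not pass (-0.52 ± 0.18, limma adjusted p = 0.058). It passed with a stricter filter, with probe sets averaged and with arrays left unscaled (-0.52, -0.52 and -1.24). It has a single tested probe set, so the averaging left its difference unchanged.

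The kinases at the head of the pathway gave smaller differences. Atm had means of 357 and 312, with a 95% interval from -0.54 to 0.16, and Atr had 169 and 145, with one from -0.69 to 0.25. The MRN complex, which binds broken ends and recruits ATM, consists of Mre11a, Rad50 and Nbn. Mre11a, its nuclease, had 201 and 214 at E11.5 and 158 and 91.3 at E14.5, with E14.5 the lower group but widely spread (-0.72 ± 0.24, limma adjusted p = 0.058). It passed without E11.5 replicate 1 (-0.76) and when replicate 1 of E14.5 was left out (-1.08). In both cases the single array left was the one further from the other group. With all arrays kept, Mre11a also passed with a stricter filter, with the replicate number as a block and with arrays left unscaled (-1.42). Nbn, the adaptor, had 269 and 201 against 203 and 127, which overlap (-0.50 ± 0.24, limma adjusted p = 0.16). It passed when E11.5 replicate 2 (-0.70) or E14.5 replicate 1 (-0.82) was left out. The single array left was then the high one at E11.5 or the low one at E14.5. Nbn also passed with arrays left unscaled (-1.22). Rad50, the structural subunit, had means of 238 and 238 and an interval from -0.39 to 0.38. The subunits of one complex thus gave differences from -0.72 to -0.0062, and the difference between them was not tested.

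None of the 5 Fanconi anaemia members passed the test at any tested probe set. Fancd2 and Fanci, the pair that is ubiquitinated on damaged DNA, had means of 115 and 99.0 and of 177 and 151. Their differences were -0.19 ± 0.21 and -0.21 ± 0.19. The core complex members Fanca (-0.45 ± 0.20, limma adjusted p = 0.14), Fancg (-0.14 ± 0.24) and Fancl, its ubiquitin ligase (means of 488 and 489), did not pass either. Among the brightest probe sets of this group the widest 95% interval ran from -0.68 to 0.40, for Fancg. Dimmer probe sets of Fanci and Fancg gave larger differences. The second of Fanci had 52.9 and 40.2 at E11.5 and 15.2 and 20.0 at E14.5, without overlap (-0.96 ± 0.35, limma adjusted p = 0.075), and the second of Fancg had -0.62 ± 0.32 (limma adjusted p = 0.19).

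Nucleotide excision repair had 5 of 6 members above 0, none called. Xpa, which verifies the lesion, had 168 and 166 at E11.5 and 230 and 251 at E14.5 (0.49 ± 0.17, limma adjusted p = 0.066). Xpc, which finds the lesion, had 124 and 134 against 193 and 186 (0.51 ± 0.19, limma adjusted p = 0.073). Ercc1, part of the nuclease that cuts on the 5′ side, had 317 and 298 against 370 and 523 (0.50 ± 0.18, limma adjusted p = 0.078). In these 3 genes both E14.5 arrays were above both E11.5 arrays, where the groups did not overlap in either direction for 65.6% of all genes. All 3 were called higher when probe sets were averaged per gene. Xpa and Xpc each have a single tested probe set, so their differences were unchanged in that fit over genes. Ercc1 was also called higher without E14.5 replicate 1 (0.74), where the single E14.5 array left is the high one. With arrays left as deposited Xpa, Xpc and Ercc1 were below 0 (-0.24, -0.21 and -0.25). The median of all genes was then -0.68, and 5 of 6 members of the group still lay above it.

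Ddb2, which recognises ultraviolet lesions in chromatin, had 62.5 and 47.8 at E11.5 and 75.8 and 97.1 at E14.5 (0.55 ± 0.26, limma adjusted p = 0.17). Ercc5, the nuclease that cuts on the 3′ side, had means of 232 and 250. The helicase Ercc2 had means of 176 and 159, with overlapping groups and a 95% interval from -0.62 to 0.43.

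Genes of non-homologous end joining did not pass in either direction, with 1 below and 3 above 0. Xrcc5 and Xrcc6 encode the Ku proteins that cap broken ends. Xrcc6 had 225 and 252 at E11.5 and 275 and 266 at E14.5 (0.17 ± 0.17). Xrcc5 had 159 and 147 against 268 and 155, so that its E14.5 arrays disagreed and 1 of them lay among the E11.5 values (0.39 ± 0.24, limma adjusted p = 0.29). It was called higher without E14.5 replicate 2 (0.76), where the single E14.5 array left is the high one and the gene's own spread comes from the E11.5 arrays. Xrcc4, the scaffold of the ligation step, had 119 and 106 against 149 and 186, without overlap (0.52 ± 0.21, limma adjusted p = 0.10). Its partner, the ligase Lig4, had 204 and 141 against 129 and 116 (-0.44 ± 0.22, limma adjusted p = 0.19). So the scaffold and its ligase lay on opposite sides of 0, neither called.

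Several members were read by more than 1 probe set, which gives a further look at the same transcripts on the same arrays. Of 76 tested probe sets of members, 20 were lower and none higher by limma (6 higher at an unadjusted p under 0.05), against 12.6% and 11.1% of all 27022 tested probe sets. There were 22 members with more than 1 tested probe set. Both probe sets of Exo1 (-1.34 and -1.34) and all 3 of Chek1 (-0.94, -1.46 and -1.01) were lower. Of the 4 for Brca1, 3 were lower (-1.23, -1.64 and -0.89), while the dimmest had 56.4 and 39.6 against 50.8 and 54.2 (0.12 ± 0.29). For Parp1, 3 of 4 were lower (-0.41, -0.68 and -0.70), with the dimmest at -0.051. For Rad51ap1, 2 of 4 were lower (-1.34 and -1.01), and the others had -0.46 and -0.88. For Rad54l only the brightest of 3 was lower, with -0.32 and -0.52 for the others, and for Mbd4 the dimmer one had -0.36. Probe sets lay on both sides of 0 for 5 members, Brca1, Pms2, Lig3, Apex1 and Atr.

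**Figure D3:**
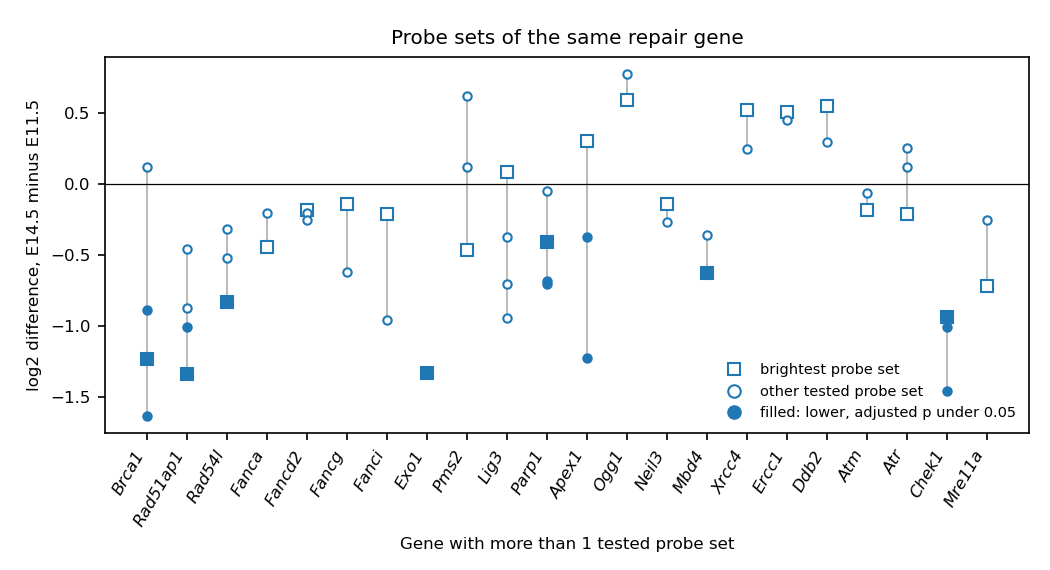
Log2 difference, E14.5 minus E11.5, for each tested probe set of the 22 members with more than 1; squares are the brightest probe set, circles the others, and filled symbols were called lower. The probe sets of Exo1 and Chek1 are all filled, and those of Apex1 run from 0.30 to -1.23.

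Of 71 other repair genes tested, from a wider textbook list, 21 were lower (29.6%) and 2 higher, with a median of -0.30. Over all genes 13.6% were called lower and 14.3% higher. Rpa2, a subunit of the protein that coats single strands, had 582 and 622 against 263 and 178 (-1.42 ± 0.19). Topbp1, which activates ATR (-1.29 ± 0.17), Eme1, a subunit of a nuclease that cuts branched DNA (-1.16 ± 0.20), and Fancb of the Fanconi core complex (-1.14 ± 0.25) followed. The call of Fancb was lost without E11.5 replicate 2 (-1.02) and with probe sets averaged. Mus81, the catalytic partner of EME1, moved the other way, from 110 and 87.4 to 258 and 248 (1.26 ± 0.19). Rev3l, the catalytic subunit of a polymerase that copies past lesions, rose from 878 and 882 to 1875 and 2446 (1.27 ± 0.15). With arrays left as deposited the last 2 differences were 0.55 and 0.50 and were not called. With all arrays, scaled, these 6 genes had limma adjusted p-values of 0.0081 or less.

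In a list of targets of p53, the transcription factor that responds to DNA damage, 5 of 17 tested genes were lower and 2 higher (median -0.34). The list as drawn up also held the gene of p53 itself and its relative Trp73. The share lower was 29.4%, where 13.6% of all genes were called lower and 14.3% higher. The cell cycle inhibitor Cdkn1a went from 759 and 470 to 310 and 308 (-0.92 ± 0.21), with the E11.5 arrays far apart. The death gene Pmaip1 (-1.47 ± 0.37), the p53 relative Trp73 (-1.12 ± 0.28) and the nuclease Aen (-0.73 ± 0.16) also fell. Without E11.5 replicate 2 the call of Pmaip1 was lost (-1.31), as was that of Trp73 without E11.5 replicate 1 (-0.95). Both calls were also lost when the filter was dropped, and that of Trp73 with probe sets averaged. The calls of Cdkn1a and Aen were lost without the variance trend. Btg2, an antiproliferative gene (1.05 ± 0.16), and Sesn1, a stress-induced inhibitor of growth signalling (0.87 ± 0.15), rose, but were not called with arrays as deposited (0.28 and 0.11). With all arrays, scaled, the limma adjusted p-values of these 6 genes were 0.016 or less.

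Genes of S phase were lower throughout, where 13.6% of all genes were called lower. All 23 tested were called lower, with a median of -1.05, led by the licensing factor Cdc6 (-2.17 ± 0.20), the transcription factor E2f1 (-1.93 ± 0.22) and the cyclins Ccne1 (-1.65 ± 0.37) and Ccne2 (-1.55 ± 0.31). Of 19 tested genes of G2 and mitosis, 10 were lower (median -0.47) and the other 9 did not pass, with negative differences throughout. Those that fell included Bub1 (-1.02 ± 0.15), Ccna2 (-1.01 ± 0.15), Ttk (-0.97 ± 0.19) and Aurka (-0.90 ± 0.14). The limma adjusted p-values of these 8 genes were 0.0092 or less. The call of Ccne1 was lost when the filter or the variance trend was dropped. The falls of Brca1, Exo1, Msh6, Rad51ap1 and Ung, the largest among the members, were larger than the median of the S phase list. The other called members fell less than that median, and the median of all tested members was -0.20. The part that the S phase and mitosis genes or the share of dividing cells had in the falls of the repair genes was not tested. In bulk RNA, fewer cells of a type and less RNA per cell cannot be told apart.

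**Figure D4:**
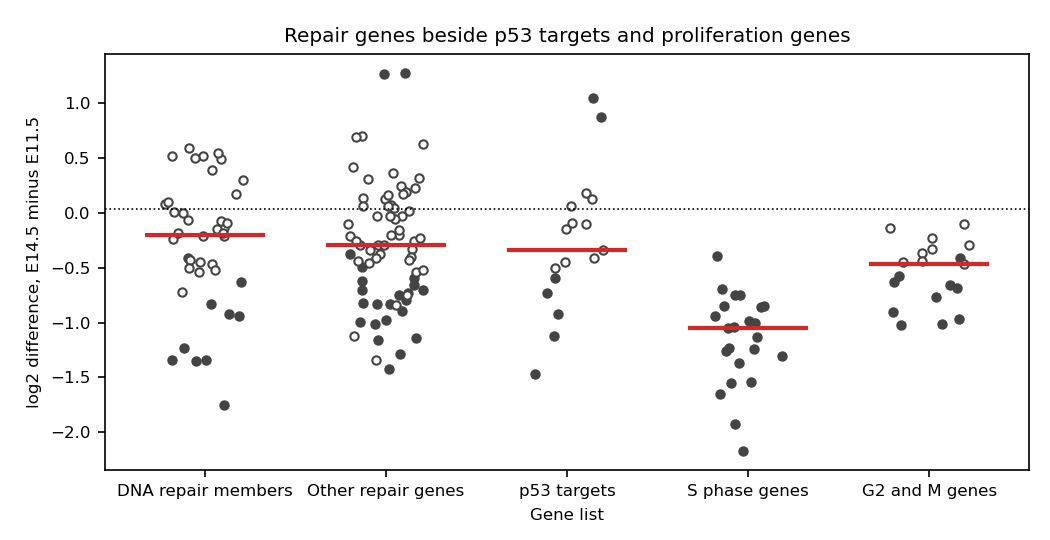
Log2 difference, E14.5 minus E11.5, of every tested gene in 5 lists, with filled points for calls in either direction, red bars for list medians and a dotted line for the median of all genes. The medians are -0.20 for the 40 repair members, -0.30 for the 71 other repair genes, -0.34 for the p53 target list, -1.05 for S phase genes and -0.47 for G2 and mitosis genes.

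The makeup of the cultures also differed. Markers of neural progenitors were present in both groups, with 8 of 8 on the array above 12.8 and summed scaled signals of 19466 to 20965 at E11.5 and 29905 to 32133 at E14.5. Summed signals of 10 neuronal markers were 13126 and 13806 at E11.5 and 4899 and 4464 at E14.5. Those of 6 oligodendrocyte precursor markers were 860 and 622 against 16720 and 19049. Those of 7 astrocyte markers were 1229 and 1444 against 14212 and 10711, and those of 10 microglia and macrophage markers 244 and 303 against 1827 and 1842. Erythroid markers (831 and 385 against 38.8 and 65.8, 5 on the array) and mesenchymal markers (1091 and 1128 against 588 and 526, 5 on the array) had smaller sums at E14.5, and endothelial markers had 171 to 257 over all 4 arrays (7 on the array). Their part in the results on repair genes was not tested. Over all genes 1756 were lower and 1850 higher; with arrays left as deposited, whose trimmed means differed by up to 2.43-fold, 2225 were lower and 250 higher.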

How the data were processed

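Total RNA (5 µg per array) was converted to biotin-labelled cRNA and hybridised to Affymetrix arrays, per the labels' protocols. The deposited values are linear signal intensities, 1 per probe set and array, made with GCOS, as the submitters' processing notes say. Its version is not given in the sources used here, nor are its settings. The table held 45101 probe sets, of which 64 controls were left out. Of the rest the platform annotation named 1 gene for 34945, several for 932 and none for 9160; 204 of the single-gene probe sets had no match by Entrez identifier in the mouse RefSeq table.

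From the deposited intensities the following was computed. Each array was scaled to a common 2% trimmed mean (factors 0.932 and 0.691 for E11.5, 1.13 and 1.68 for E14.5). Dim probe sets, with a mean below the 40th percentile (27.3), were dropped, leaving 27022, and 12.8, the 25th percentile of all values, was added before log2. Limma 3.58.1 in R 4.3.3 (lmFit, eBayes with a variance trend) tested E14.5 against E11.5 two-sided, with Benjamini-Hochberg adjustment over all 27022 probe sets. The fit was tested on simulated data. Symbols on gene lists were matched through RefSeq synonyms. Every member is named; of the other lists, up to 4 called genes per direction with the largest differences. The members and lists were chosen with earlier results of these data known. The alternatives were other scalings, pseudocounts and filters, no variance trend, averaged probe sets, a replicate block and leaving out each array. Only 2 arrays per group limit the precision.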

Additional observations from a re-analysis of the deposited data

How the results depend on the processing

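Of the 559 values that 14 alternatives gave for the 40 members, 499 kept their direction and their side of the threshold, 14 lost a call, 20 gained one and 26 turned sign, none of these 26 from a called value. For the 20 other named genes 263 of 278 were kept and 15 lost a call. The count of members lower ran from 8 to 14, and from 8 to 10 with 1 array left out. Members called higher numbered 3 with probe sets averaged (Xpa, Xpc, Ercc1), 1 with a replicate block (Ercc1) and 0 to 1 with 1 array left out. The replicate block, for which arrays share only a number (correlation of their deviations 0.0041), gave 11 members lower, the 10 called without it and Mre11a; 1933 genes were lower and 2016 higher. Without the variance trend the calls were 1919 probe sets (1150 genes) higher and 2097 (1101 genes) lower. With arrays as deposited 400 probe sets and 250 genes were higher; the shift of all genes by -0.68 then also turned Fancl (-0.75), Lig3 (-0.67), Apex1 (-0.48), Ogg1 (-0.085), Xrcc4 (-0.20), Xrcc5 (-0.33), Xrcc6 (-0.57), Xpa (-0.24), Xpc (-0.21), Ercc1 (-0.25), Ercc5 (-0.64) and Ddb2 (-0.11). Signs also turned for Rad50 under quantile normalization (0.050) and Fancl with a common median (-0.032). With probe sets averaged they turned for Pms2 (0.087), Lig3 (-0.49), Apex1 (-0.44) and Atr (0.051), and Apex1 was called lower. Msh3, Chek2, Xpa and Xpc each have a single tested probe set, so their differences were unchanged in that fit over genes. With 1 array left out, Xrcc1 ran from -0.19 to 0.036 and Ercc2 from -0.42 to 0.23 (turned without E11.5 replicate 1), Fancl from -0.12 to 0.14, Neil3 to 0.035 and Rad50 to 0.060 (without E11.5 replicate 2), Atr to 0.0024 and Rad50 to 0.099 (without E14.5 replicate 1), and Parp2 from -0.23 to 0.086 (without E14.5 replicate 2). Apart from the shift of the unscaled arrays, the cause was not tested.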
